A study of Mus musculus with 21 samples.

Results

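The microRNA processing machinery was examined here as the 10 genes Drosha, Dgcr8, Xpo5, Dicer1, Tarbp2, Prkra, Ago1, Ago2, Ago3 and Ago4, taken by symbol from the 24054 rows of a gene count table of mouse left ventricle. All 10 symbols had a row of their own, and all 10 passed the filter on low counts that left 14135 genes for testing. The smallest count of any of them in any library was 304. None of the 10 was called changed in any of the 6 comparisons between groups. Of all tested genes, 25.2% were called in the comparison of pressure-overloaded with sham-operated hearts. In the comparisons of drug-treated overloaded with sham-operated hearts the share was 14.6% and 3.82%. Among the overloaded groups it was at most 0.0141%, so that hardly any gene was called there.

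MicroRNAs are cut from long primary transcripts in steps. In the nucleus the Microprocessor, made of the RNase III enzyme DROSHA and its RNA-binding partner DGCR8, cuts the stem of the primary transcript and releases a hairpin precursor, which Exportin-5 (Xpo5) carries to the cytoplasm. There DICER1, with its double-stranded RNA-binding partners TRBP (Tarbp2) and PACT (Prkra), cuts off the loop, and 1 strand of the duplex is loaded into an Argonaute protein, which it guides to messenger RNAs. Among the 4 Argonautes of mammals, AGO2 is the one with well-established target-cutting activity in mice. In the heart this pathway is known from knockouts: loss of Dicer1 or Dgcr8 from cardiomyocytes leads to cardiac dysfunction.

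Every animal was a C57BL/6J mouse, and each of the 21 libraries was made from the left ventricular myocardium of 1 mouse with an ear tag of its own. The sham group (5 mice) had sham surgery and no drug, and the TAC group (5 mice) had transverse aortic constriction, a narrowing of the aorta that overloads the left ventricle, and no drug. The other two groups had TAC and a drug for 4 weeks from 1 week after surgery: the PDE5A inhibitor sildenafil (5 mice), or the PDE9A inhibitor PF-04449613 (6 mice). PDE5A and PDE9A are enzymes that break down cyclic GMP, and the series title asks how blocking each alters cardiac messenger RNA under overload. The labels state no age, sex, dose or vehicle. No group had sham surgery with a drug, so a drug's effect without overload was not analysed here. Total counts ran from 22.7 to 40.99 M per library.

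The table measures gene transcripts and not mature microRNAs. It held 1123 rows whose symbols start with Mir, of which 1098 had no count in any library and 4 passed the filter. The other 1119 reached at most 9 counts in any library. The 4 that passed are host genes, the long transcripts from which microRNA hairpins are cut: Mir22hg, Mirlet7bhg, Mir17hg and Mir143hg. They were singled out after their values were seen. The following hairpins, 1 for each of 3 of these hosts, are shown because they are the substrates on which the proteins of this pathway act. They are RefSeq sequences on build GRCm38.p6, written 5′ to 3′, with the mature arms in capitals. Mir22 lies at chr11:75463716-75463810, Mirlet7b at chr15:85707319-85707403 and Mir17 at chr14:115043671-115043754, all on the plus strand.
Mir22: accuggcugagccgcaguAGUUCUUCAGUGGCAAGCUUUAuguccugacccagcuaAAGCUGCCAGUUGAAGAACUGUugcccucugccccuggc
Mirlet7b: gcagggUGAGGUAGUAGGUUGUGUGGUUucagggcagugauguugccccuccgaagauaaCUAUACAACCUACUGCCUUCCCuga
Mir17: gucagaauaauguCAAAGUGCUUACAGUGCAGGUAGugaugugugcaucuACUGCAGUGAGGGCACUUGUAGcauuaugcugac

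DROSHA cuts at the outer ends of the capitals, DICER1 cuts at their inner ends, and the lower-case letters between the arms are the discarded loop. From the first base of the 5′ arm to the last base of the 3′ arm, the stretch measured 60 bases in Mir22, 76 in Mirlet7b and 59 in Mir17. The loop between the arms measured 16, 32 and 14 bases in the same order. The strand held by an Argonaute pairs with its targets mainly through its seed, bases 2 to 8, in capitals here. The 3 seeds differ from each other.
mmu-miR-22-3p: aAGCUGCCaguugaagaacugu
mmu-let-7b-5p: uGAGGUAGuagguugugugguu
mmu-miR-17-5p: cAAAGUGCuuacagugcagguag

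None of the 4 host transcripts was called in TAC against sham. Mir22hg (chr11:75461539-75466676, plus strand, a noncoding transcript) ran from 10.2 to 13.7 CPM in sham and from 9.24 to 14.3 CPM in TAC, a range that holds all of the sham libraries. CPM are counts per M after scaling between libraries by the TMM method. The other 3 hosts had group means of 1.89 to 2.86 CPM in sham and 2.01 to 2.24 CPM in TAC. For Mir22hg the log2 fold change was -0.12 (95% interval -0.43 to 0.20).

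In the Microprocessor, Drosha (chr15:12824815-12935291 on GRCm38, plus strand, protein-coding) was at 58.2, 55.4, 48.1, 65.2 and 52.5 CPM in sham libraries 1 to 5. In TAC libraries 1 to 5 it was at 48.5, 61.3, 45.6, 40.5 and 44.7 CPM. TAC library 2 lay inside the upper part of the sham range, library 1 at its lower edge, and the other 3 TAC libraries below every sham library. Drosha had a log2 fold change of -0.22 (SE 0.10, 95% interval -0.43 to -0.00077), with an edgeR quasi-likelihood p of 0.0493 and a Benjamini-Hochberg adjusted p of 0.125. By this test Drosha was not called. Without TAC library 2 the log2 fold change was -0.31 with an edgeR adjusted p of 0.0175, a call that rests on leaving out that library.

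Drosha was at 50.9, 43.1, 46.6, 46.1 and 51.5 CPM in PDE5A inhibitor libraries 1 to 5. In the 6 PDE9A inhibitor libraries its lowest, median and highest values were 48.2, 55.1 and 66.8 CPM. The PDE5A inhibitor libraries thus filled the lower part of the sham range and the space just under it, and the PDE9A inhibitor libraries spread over nearly the same range as sham. Against sham the log2 fold change was -0.23 under the PDE5A inhibitor (edgeR adjusted p = 0.129) and -0.0084 under the PDE9A inhibitor (edgeR adjusted p = 0.964). Between the 2 drug groups it was 0.22, higher under the PDE9A inhibitor (95% interval 0.014 to 0.43, edgeR adjusted p = 0.446). The 2 drug groups overlapped, and 4 of the 6 PDE9A inhibitor libraries lay above every PDE5A inhibitor library.

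Dgcr8 (chr16:18253948-18289246, minus strand), the other subunit of the complex, ran from 15.9 to 18.6 CPM in sham and from 16.3 to 18.2 CPM in TAC. Its log2 fold change in TAC against sham was 0.0099, with a 95% interval of -0.14 to 0.16. Its ranges under the inhibitors, 14.9 to 17.7 CPM with the PDE5A inhibitor and 14.7 to 18.99 CPM with the PDE9A inhibitor, overlapped both. The ratio of Drosha to Dgcr8 in CPM per kb of exon was 4.22 ± 0.65 in sham, 3.62 ± 0.75 in TAC, 3.89 ± 0.41 under the PDE5A inhibitor and 4.21 ± 0.52 under the PDE9A inhibitor (SD), with overlapping ranges. An exon of Dgcr8 shares up to 825 bases with an exon of Trmt2a on the opposite strand. On its own strand Dgcr8 shares up to 128 with the protein-coding Gm49776, and 88 and 79 with the microRNA genes Gm24572 and Mir1306. Drosha shares up to 72 with the microRNA gene Gm47288 on its own strand. Dgcr8 had counts with decimals, left where RSEM splits a read between genes, in only 4.76% of libraries. No source used here gives the strand setting of the authors' counting, so how reads of the shared bases were assigned is uncertain.

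**Figure D1:**
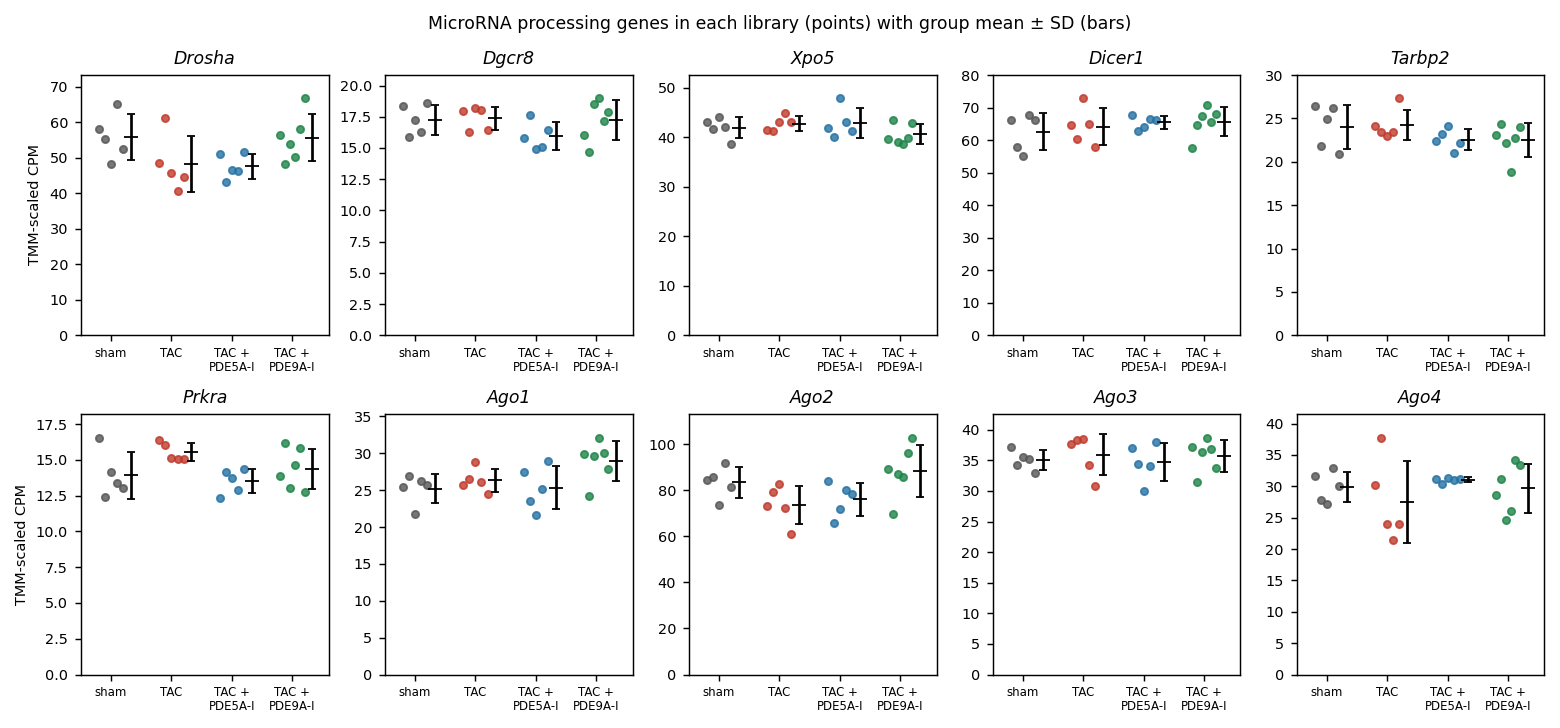
TMM-scaled CPM (vertical axis, from 0) of the 10 genes in each of the 21 libraries (points) with the group mean ± SD (black bars). PDE5A-I and PDE9A-I are the inhibitor groups. Groups overlap in all 10 panels, except that the 5 PDE5A inhibitor libraries of Prkra (12.4 to 14.4 CPM) all lie under the 5 TAC libraries (15.05 to 16.4 CPM).

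Xpo5 (chr17:46202782-46243598, plus strand), the exporter of precursors, had the lowest spread within groups of the 10. It ran from 38.6 to 44.1 CPM in sham, 41.2 to 44.9 in TAC, 40.1 to 47.9 under the PDE5A inhibitor and 38.7 to 43.4 under the PDE9A inhibitor. The SD of its log2 CPM within groups was 0.075, against a median of 0.187 over all tested genes. The log2 fold change in TAC against sham was 0.027 (95% interval -0.084 to 0.14).

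Dicer1 (chr12:104687742-104751952, minus strand), the enzyme that removes the loop, was at 66.2, 58.0, 55.1, 67.7 and 66.4 CPM in sham libraries 1 to 5. In TAC libraries 1 to 5 it was at 64.7, 60.3, 72.9, 65.01 and 57.9 CPM. The TAC libraries lay within the sham range apart from library 3, which was above it. Dicer1 had a log2 fold change of 0.034 in TAC against sham (SE 0.069, 95% interval -0.11 to 0.18, edgeR adjusted p = 0.745). Under the PDE5A inhibitor Dicer1 ran from 62.7 to 67.9 CPM, and under the PDE9A inhibitor from 57.5 to 70.9 CPM. Its log2 fold changes against TAC were 0.029 (95% interval -0.12 to 0.17) and 0.034 (95% interval -0.10 to 0.17).

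Of the 2 partners of Dicer, Tarbp2 (chr15:102518192-102523676, plus strand) ran from 20.9 to 26.4 CPM in sham, 22.95 to 27.3 in TAC, 20.98 to 24.1 under the PDE5A inhibitor and 18.8 to 24.4 under the PDE9A inhibitor. Its log2 fold change in TAC against sham was 0.012 (95% interval -0.15 to 0.17).

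Prkra (chr2:76629898-76648015, minus strand) was at 16.6, 12.4, 14.2, 13.4 and 13.05 CPM in sham libraries 1 to 5. In TAC libraries 1 to 5 it was at 16.4, 16.0, 15.1, 15.05 and 15.1 CPM. With the PDE5A inhibitor the 5 libraries were at 12.4, 14.2, 13.8, 12.9 and 14.4 CPM. The TAC libraries thus lay above 4 of the 5 sham libraries and below sham library 1, and all 5 PDE5A inhibitor libraries lay below every TAC library. Of all tested genes, 0.99% showed such a separation of PDE5A inhibitor from TAC in CPM. Prkra in PDE5A inhibitor against TAC had a log2 fold change of -0.20 (SE 0.080, 95% interval -0.37 to -0.035), with an edgeR p of 0.0202 and an adjusted p of 0.947. In TAC against sham it was 0.16 (95% interval -0.0072 to 0.33, edgeR adjusted p = 0.143). Without sham library 1 this fold change was 0.23 with an edgeR adjusted p of 0.0441. Prkra was thus not called with all libraries, and leaving out that 1 library called it. In the 6 PDE9A inhibitor libraries Prkra ran from 12.7 to 16.2 CPM with a median of 14.3 CPM, across the ranges of the other groups. These comparisons share the TAC libraries.

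**Figure D2:**
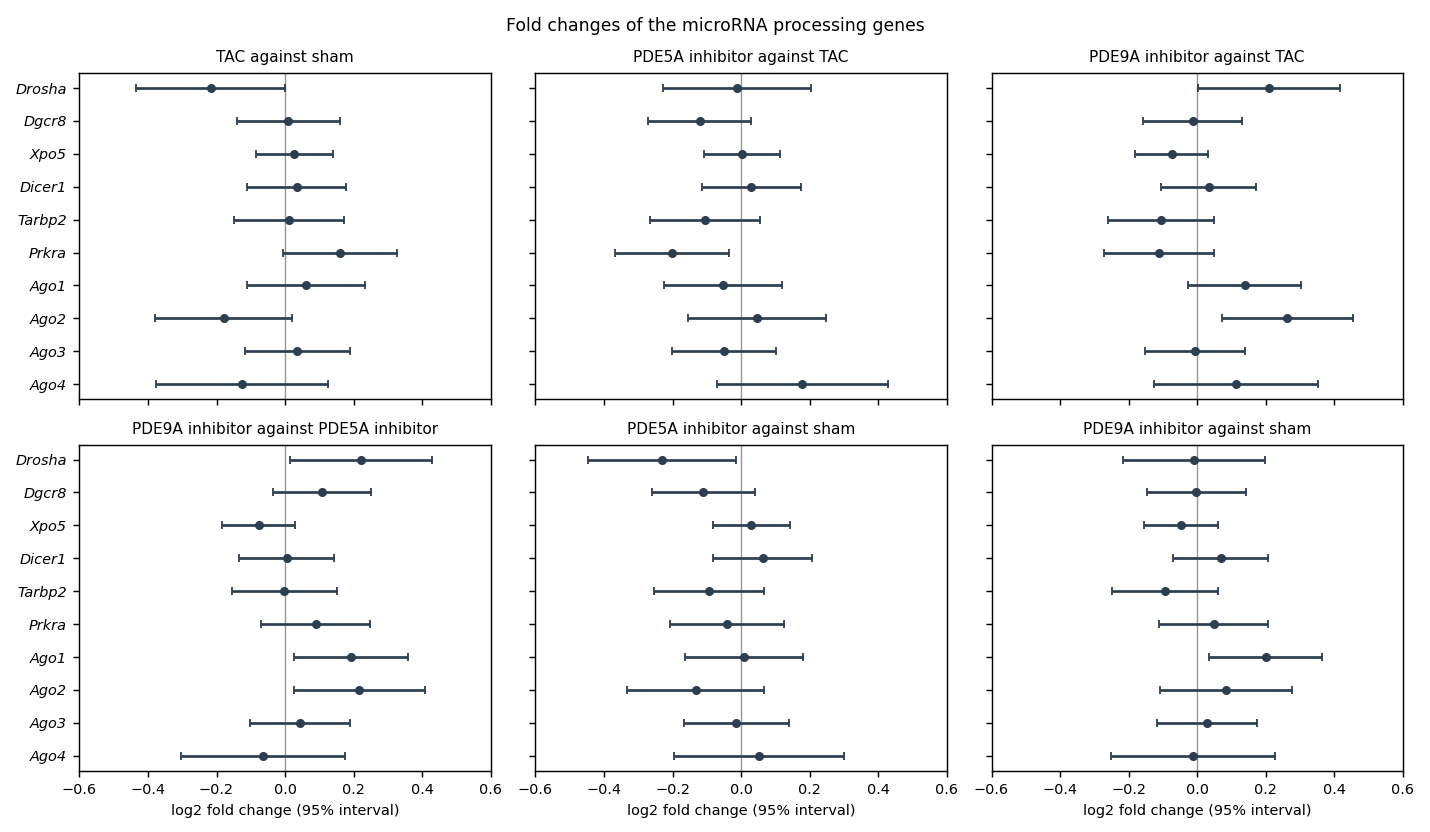
Log2 fold changes (points) with 95% intervals (bars) of the 10 genes in the 6 comparisons, on the horizontal axis. In TAC against sham every interval lies between -0.43 and 0.33, and no gene has an edgeR adjusted p under 0.05 in any panel.

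Ago2 (chr15:73095844-73184935, minus strand) had the highest CPM of the 4 Argonaute genes. It was at 84.6, 85.7, 73.7, 91.7 and 81.2 CPM in sham libraries 1 to 5 and at 73.3, 79.1, 82.8, 72.2 and 60.8 CPM in TAC libraries 1 to 5. Of the TAC libraries, 3 lay below every sham library and the other two inside the sham range. The log2 fold change in TAC against sham was -0.18 (SE 0.096, 95% interval -0.38 to 0.021, edgeR adjusted p = 0.170).

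In the 6 PDE9A inhibitor libraries the lowest, median and highest values of Ago2 were 69.5, 88.1 and 102.9 CPM. The 5 PDE5A inhibitor libraries were at 84.2, 65.9, 71.9, 79.9 and 78.3 CPM. Of the 6 PDE9A inhibitor libraries, 5 lay above every TAC library and above every PDE5A inhibitor library, and library 2 lay inside both ranges. Against TAC the log2 fold change was 0.26 (SE 0.092, 95% interval 0.071 to 0.46). Its edgeR p was 0.00970, the lowest of the 10 genes in any comparison, and its adjusted p over all tested genes was 0.259. Against the PDE5A inhibitor the log2 fold change was 0.22 (95% interval 0.025 to 0.41, edgeR adjusted p = 0.426). An exon of Ago2 shares up to 219 bases with an exon of Chrac1 on the opposite strand, with the same uncertainty as for Dgcr8.

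Ago1, Ago3 and Ago4 stand in tandem on the minus strand of chromosome 4. Ago3 (chr4:126331704-126429556) is followed after 5.46 kb by Ago1 (chr4:126435012-126468583) and after a further 20.96 kb by Ago4 (chr4:126489541-126533472). Ago1 ran from 21.8 to 26.9 CPM in sham, 24.5 to 28.8 in TAC and 21.7 to 29.0 under the PDE5A inhibitor. In the 6 PDE9A inhibitor libraries it was at 24.2 CPM in library 2 and at 27.8 to 32.1 CPM in the others, all 5 of which lay above every sham library. The log2 fold change of Ago1 in PDE9A inhibitor against sham was 0.20 (SE 0.080, 95% interval 0.034 to 0.37, edgeR adjusted p = 0.119). Without PDE9A inhibitor library 2 it was 0.25 with an edgeR adjusted p of 0.0461, so that this 1 library decides the call. In TAC against sham Ago1 had a log2 fold change of 0.061 (95% interval -0.11 to 0.23).

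Ago3 ran from 32.9 to 37.2 CPM in sham, 30.7 to 38.5 in TAC, 30.0 to 38.0 under the PDE5A inhibitor and 31.5 to 38.7 under the PDE9A inhibitor. Its largest log2 fold change among the 6 comparisons was -0.050, in PDE5A inhibitor against TAC (95% interval -0.20 to 0.10). Ago4 was at 31.6, 27.7, 27.3, 32.9 and 30.1 CPM in sham and at 30.1, 37.8, 24.0, 21.5 and 24.0 CPM in TAC libraries 1 to 5. In TAC, 3 libraries thus lay below every sham library and library 2 above all of them, and the 5 PDE5A inhibitor libraries lay between 30.4 and 31.4 CPM. The SD of Ago4 was 6.58 CPM in TAC and 0.38 CPM under the PDE5A inhibitor. Its log2 fold change in TAC against sham was -0.13 (95% interval -0.38 to 0.12).

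The Argonautes can be compared with one another once their counts are divided by exon length. Of the summed Argonaute level in CPM per kb of exon, Ago2 made up 38.4 ± 0.91% in sham, 35.95 ± 2.28% in TAC, 35.8 ± 1.61% under the PDE5A inhibitor and 38.5 ± 2.35% under the PDE9A inhibitor (SD). In sham Ago4 followed with 27.8 ± 1.16%, then Ago1 with 20.1 ± 0.96% and Ago3 with 13.7 ± 1.03%. The share of Ago2 overlapped between groups, with ranges of 37.5 to 39.5% in sham and 33.9 to 38.8% in TAC. In all 4 groups the order of the mean shares was Ago2, Ago4, Ago1 and Ago3. With no division by length Ago3 came after Ago2 in all 4 groups, in sham with 20.2%, ahead of Ago4 (17.2%) and Ago1 (14.5%). The order below Ago2 thus rests on the division by length. RSEM had split shared reads in every library for Ago1 and Ago3, seen as counts with decimals, and in 71.4% and 33.3% of libraries for Ago2 and Ago4.

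**Figure D3:**
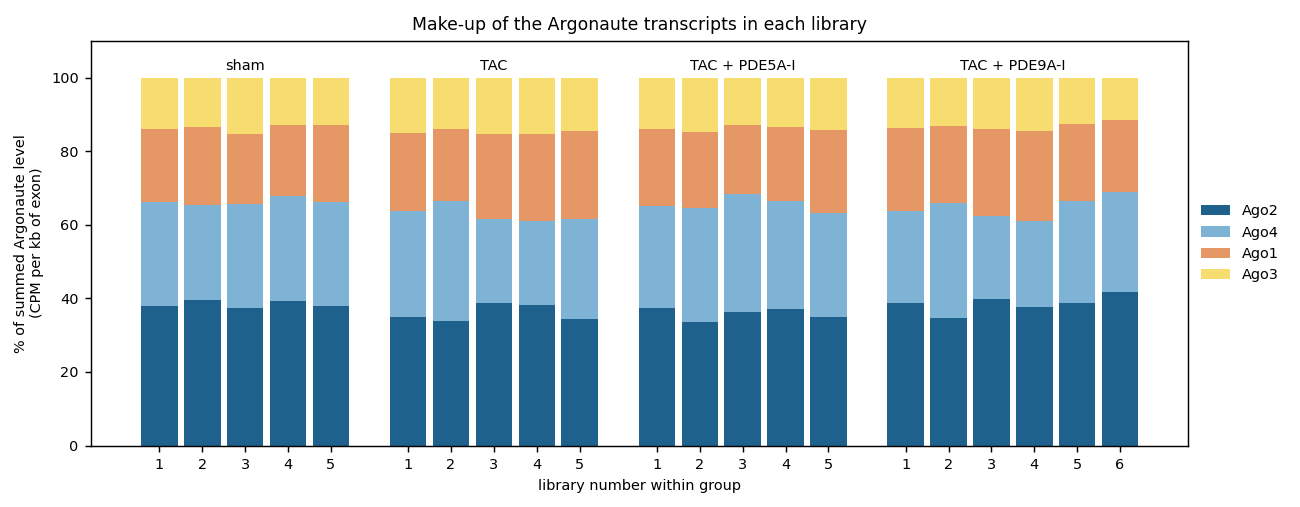
Share of each Argonaute gene in the summed Argonaute level (CPM per kb of exon, in percent, stacked to 100) for every library, numbered within its group. Ago2, at the bottom, takes 33.9 to 38.8% in TAC and 37.5 to 39.5% in sham.

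Across the 10 genes the order of levels per kb was led by Drosha in all 4 groups, though in sham and TAC its range overlapped that of Prkra, the next. In sham it stood at 9.42 ± 1.08 CPM per kb, followed by Prkra (6.86), Xpo5 (6.11), Ago2 (5.94), Tarbp2 (5.29), Ago4 (4.31), Dicer1 (3.74), Ago1 (3.11), Dgcr8 (2.24) and Ago3 (2.11 CPM per kb). Neighbours in this order overlapped in range over the 5 sham libraries, except that Ago1 lay above Dgcr8 in all of them. These levels divide by the union of all annotated exons, which is long for genes with many transcripts. Divided by the longest transcript, Drosha still led (12.2 CPM per kb) but Tarbp2 (8.81) came next and Dgcr8 (4.00) passed Ago1 (3.49).

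In TAC against sham 0 of the 10 genes were called by edgeR, where 25.2% of all tested genes were, and 0 were called by DESeq2, against 29.4%. At an unadjusted edgeR p under 0.05 there was 1 of 10 (Drosha), against 39.6% of all tested genes, and by DESeq2 there were 0. The median size of the log2 fold change was 0.048 over the 10 genes and 0.195 over all tested genes. Precision differed as well, with a median SE of 0.079 over the 10 genes and 0.117 over all tested genes, so the sizes are not matched for it. In PDE5A inhibitor against TAC, PDE9A inhibitor against TAC and PDE9A inhibitor against PDE5A inhibitor, 0 of 10 were called by either tool, and 0.0141%, 0.00707% and 0.00707% of all tested genes were called by edgeR and 0.0566%, 0.205% and 0.248% by DESeq2. At an unadjusted edgeR p under 0.05 there were 1 (Prkra), 2 (Drosha and Ago2) and 3 (Drosha, Ago1 and Ago2), against 5.17%, 14.6% and 10.4% of all tested genes, and DESeq2 gave 1, 2 and 3. In PDE5A inhibitor against sham and PDE9A inhibitor against sham, 0 of 10 were called by either tool, where edgeR called 14.6% and 3.82% of all tested genes and DESeq2 19.9% and 11%. These edgeR counts, 2066 and 540 genes, moved to between 580 and 2531 and between 21 and 1814 with 1 library left out, and to 276 and 6 in a fit with the first digit of the ear tag as a covariate. The 580 came without PDE5A inhibitor library 4, the 21 without sham library 3 and the 1814 without PDE9A inhibitor library 6. Each of these 2 had 1 gene at an unadjusted edgeR p under 0.05 (Drosha and Ago1), against 32.8% and 27.2% of all tested genes, and DESeq2 also gave 1 and 1. Apart from Prkra in PDE5A inhibitor against TAC, 0 of the 10 genes separated 2 groups without overlap. Such separation was seen in 16.5% of all tested genes in TAC against sham, 0.509% in PDE9A inhibitor against TAC, 0.757% in PDE9A inhibitor against PDE5A inhibitor, 15.6% in PDE5A inhibitor against sham and 3.47% in PDE9A inhibitor against sham.

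Markers of some cell types moved between the same groups. In TAC against sham, 0 of 10 endothelial markers rose and 1 fell, and 1 of 10 macrophage markers rose and 1 fell. Of 4 tested T cell markers and 9 erythroid markers 0 were called. Of 4 tested Schwann cell and neuron markers 1 rose and 2 fell. Summed cardiomyocyte markers (12 genes, all with counts) ran from 103788 to 117845 CPM in sham, 59267 to 96938 in TAC, 70002 to 91263 under the PDE5A inhibitor and 79127 to 115321 under the PDE9A inhibitor. Of the 12, 5 fell in TAC and 0 rose. Myh6 alone had a mean of 45267 CPM in sham and 27455 CPM in TAC, so it carries a large part of this sum. Mybpc3 had a mean of 5740 CPM in sham and 6543 CPM in TAC, and was not called. Summed activated fibroblast markers (9 genes, all 9 of which rose in TAC) ran from 180 to 287 CPM in sham, 901 to 5742 in TAC, 629 to 3424 under the PDE5A inhibitor and 254 to 2836 under the PDE9A inhibitor. Of 10 other fibroblast markers 8 rose in TAC, with sums of 2521 to 3158 CPM in sham and 4171 to 6408 CPM in TAC. Smooth muscle and pericyte markers (9 genes, of which 2 rose and 1 fell in TAC) summed to 1458 to 1697 CPM in sham and 1073 to 1335 CPM in TAC. Among these 9, the highest count in any library was 34360 for Abcc9, followed by 13367 for Rgs5, so their sum leans on few genes. B cell markers (5 genes, of which 4 were tested and all 4 rose in TAC) summed to 1.06 to 2.70 CPM in sham, 3.04 to 5.39 in TAC, 3.44 to 5.14 under the PDE5A inhibitor and 1.05 to 1.90 under the PDE9A inhibitor. TAC library 2, the one with the highest Drosha and Ago4 of its group, had the highest cardiomyocyte sum (96938 CPM) and the lowest activated fibroblast sum (901 CPM) of the TAC libraries. TAC library 4, with the lowest Drosha and Ago4, had the lowest cardiomyocyte sum (59267 CPM) and the highest activated fibroblast sum (5742 CPM). Not all TAC libraries kept this order. TAC library 5 had the next highest cardiomyocyte sum (91497 CPM) and the next lowest activated fibroblast sum (1493 CPM). Its Drosha level (44.7 CPM) was below that of TAC library 3 (45.6 CPM), whose sums were 73661 and 4456 CPM. PDE9A inhibitor library 6, highest of its group in Drosha (66.8 CPM), had its highest cardiomyocyte sum (115321 CPM) and lowest activated fibroblast sum (254 CPM). Library 5 of that group, next in Drosha (58.2 CPM), came next in both (105651 and 528 CPM). Its library 2, lowest in Drosha (48.2 CPM), had a higher cardiomyocyte sum (100431 CPM) than library 3 (79208 CPM, Drosha 53.8 CPM). PDE5A inhibitor library 2 had the lowest activated fibroblast sum of its group (629 CPM) and also its lowest Drosha level (43.1 CPM). The part of cell make-up in the values of the 10 genes was not tested. In RNA from whole tissue, fewer cells of a type, less RNA per cell and a change of a marker gene within cells cannot be told apart. Of 6 markers of male germ cells, where the PIWI branch of the Argonaute family works, 1 had no count in any library, and their sum stayed between 1.17 and 2.73 CPM. Reads of the ribosomal gene Rn45s made up 0.326% of counts in library 1 and 0.416% in library 4 of the PDE9A inhibitor group, and 0.192 to 0.278% in the other 19 libraries. Without those 2 libraries 0 of the 10 genes were called in any comparison, and the log2 fold change of Ago1 in PDE9A inhibitor against TAC was 0.079 in place of 0.14.

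The ear tags fall into series by their first digit, which the labels do not explain. Among mice with tags that start with 1 (3 sham and 2 TAC) the difference of TAC from sham in mean log2 CPM was 0.021 for Drosha, -0.092 for Ago2 and 0.23 for Ago4. Among those with tags that start with 6 (2 and 2) it was -0.46 for Drosha, -0.38 for Ago2 and -0.47 for Ago4. All 3 genes were lower in TAC by more in the second of these series, and Drosha and Ago4 were not lower in the first. The 2 TAC mice of the first series were TAC library 1 (Drosha 48.5, Ago4 30.1 CPM) and TAC library 2 (Drosha 61.3, Ago4 37.8 CPM). Their sham means were 53.9 and 28.9 CPM, so for Drosha this rests on TAC library 2. Whether the series differ in this was not tested. For Prkra the difference was 0.18 and 0.19. No sham mouse had a tag that starts with 5, and no PDE5A inhibitor mouse had a tag that starts with 1. Tags that start with 5 were carried by 4 of the PDE9A inhibitor mice, 2 of the PDE5A inhibitor mice and 1 TAC mouse. Drug group and tag series are thus partly confounded.

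Pairs of the 10 genes varied together to different degrees from mouse to mouse. With group means removed, over the 21 libraries, Pearson's r of log2 CPM was 0.76 for Drosha with Ago4, 0.72 for Ago1 with Ago3, 0.70 for Drosha with Ago2 and 0.67 for Ago1 with Ago2. The 2 subunits of the Microprocessor, Drosha and Dgcr8, had an r of -0.13, and the 2 RNase III enzymes, Drosha and Dicer1, an r of 0.13. The lowest value was -0.62, for Xpo5 with Ago1. These are descriptions: the genes of a pair share the depth, cell make-up and scaling of each library, and libraries differ in these. Ago1 and Ago3 both had split reads in every library, and with which genes they shared them is not known from the table. Over all tested genes with a mean of at least 1 CPM (12043 searched), with the group means left in, the closest to Drosha were Sptb (r = 0.95), Fto (0.93) and Insr (0.92). The closest to Ago2 were Kmt2d (0.93), Prrc2a (0.93) and Iqsec2 (0.93), and the closest to Dicer1 were Plxnb2 (0.71), Lrrc42 (0.70) and Heg1 (0.70).

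**Figure D4:**
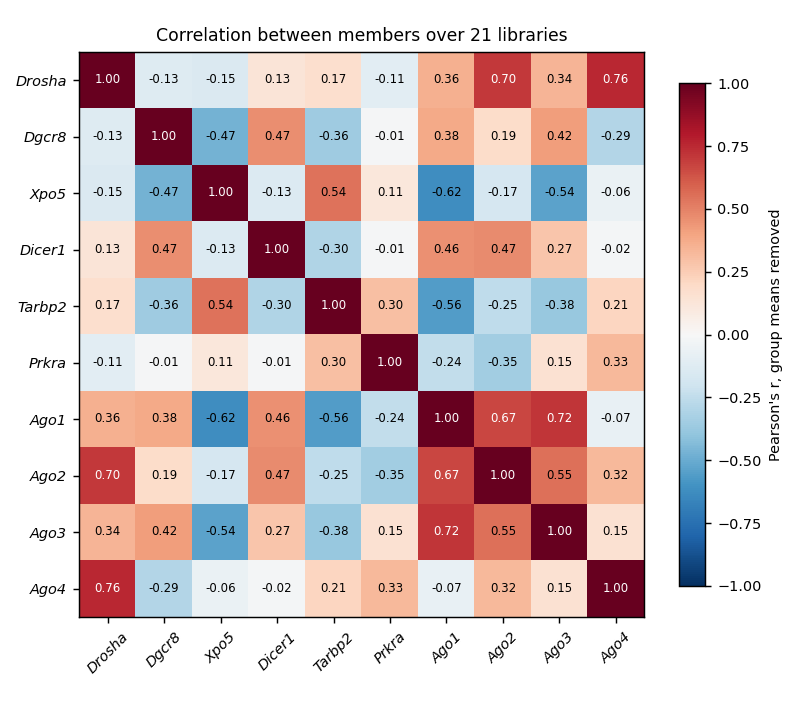
Pearson's r of log2 CPM between the 10 genes over 21 libraries after the group means were removed (red positive, blue negative). The highest value off the diagonal is 0.76, for Drosha with Ago4, and the lowest is -0.62, for Xpo5 with Ago1.

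Drosha and Ago4, the pair that varied most together, have their promoters shown here for that reason. The 250 bases before the RefSeq start (GRCm38.p6) are given 5′ to 3′ on the gene's strand, at chr15:12824565-12824814 (plus) for Drosha and chr4:126533459-126533708 (minus) for Ago4. Capitals mark the letters CCAAT (the CCAAT box) and GGGCGG (the GC box), each on either strand, so that CCAAT also appears as ATTGG and GGGCGG as CCGCCC. Overlapping matches run together.
Drosha: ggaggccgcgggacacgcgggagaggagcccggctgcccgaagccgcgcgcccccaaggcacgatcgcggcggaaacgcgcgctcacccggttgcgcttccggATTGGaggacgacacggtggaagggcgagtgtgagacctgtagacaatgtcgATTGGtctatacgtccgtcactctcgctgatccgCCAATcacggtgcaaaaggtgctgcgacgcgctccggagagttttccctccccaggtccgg
Ago4: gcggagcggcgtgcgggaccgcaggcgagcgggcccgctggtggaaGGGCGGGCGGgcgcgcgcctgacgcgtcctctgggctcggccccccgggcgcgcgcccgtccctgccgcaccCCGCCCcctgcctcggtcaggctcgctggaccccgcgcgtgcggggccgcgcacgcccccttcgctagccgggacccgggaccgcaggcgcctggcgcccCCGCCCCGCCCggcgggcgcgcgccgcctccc

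The Drosha window held 3 matches to CCAAT and 0 to GGGCGG, and the Ago4 window held 0 and 5. GC content was 66.4% in the Drosha window, with 33 CpG, and 85.6% in the Ago4 window, with 46 CpG, against medians of 52.4% and 6 CpG over 32851 windows of the same length. A RefSeq window was matched for 9 of the 10 genes. Among these 9, CCAAT was present in 5 (33.8% of all windows) and GGGCGG in 8 (32.7% of all windows). Their GC content ran from 60% (Tarbp2) to 85.6% (Ago4), above the median of all windows. The shares over all windows are not matched for GC content, so no enrichment is read from them. TATAAA (the TATA box, 12.4% of all windows) and CACGTG (an E-box, 6.02% of all windows) were present in 0 of 9.

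Around the 10 genes, a list of 70 other genes of the pathway was followed, of which 67 passed the filter. It holds Microprocessor cofactors, the export partner, enzymes that tail, edit or degrade precursors, chaperones that load Argonautes, and the silencing factors that act after them. In TAC against sham 3 of the 67 rose, 8 fell and 56 were not called, that is 16.4% called against 25.2% of all tested genes, of which 12.2% rose and 13% fell. The median log2 fold change of the 67 was -0.052, against -0.0013 over all tested genes.

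Fmr1, an RNA-binding translational regulator that associates with the microRNA silencing machinery, stood at 22.2 ± 1.12 CPM in TAC and 15.6 ± 1.95 CPM in sham (SD), with all 5 TAC libraries above every sham library. It rose by 0.50 on the log2 scale (SE 0.11, edgeR adjusted p = 0.00486). Adarb1, an adenosine deaminase that edits double-stranded RNA, rose by 0.50 on the log2 scale (SE 0.17, edgeR adjusted p = 0.0407). P4hb, which was listed among the genes of Argonaute stability and is better known as protein disulfide isomerase and as a subunit of the collagen prolyl hydroxylase, rose by 0.33 (SE 0.11, edgeR adjusted p = 0.0386).

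Among the 8 genes that fell, Cnot1, the scaffold of the CCR4-NOT deadenylase complex, stood at 194.5 ± 12.7 CPM in TAC and 234.2 ± 9.78 CPM in sham (SD), with no overlap, a log2 fold change of -0.27 (edgeR adjusted p = 0.00762). Cnot3, another subunit of that complex, had a log2 fold change of -0.36 (edgeR adjusted p = 0.0166). Patl1, a decapping factor, had -0.38 (edgeR adjusted p = 0.00922), and Lsm14b, an RNA-binding protein of the LSM14 family, had -0.37 (edgeR adjusted p = 0.00979). Tnrc6c, a GW182 protein that links Argonautes to deadenylases, had -0.25 (edgeR adjusted p = 0.0417). Among the chaperones, Fkbp4, a co-chaperone of HSP90, had the largest fall, with a log2 fold change of -0.74 (SE 0.22, edgeR adjusted p = 0.0190), and Ptges3, the HSP90 co-chaperone p23, had -0.18 (edgeR adjusted p = 0.0233). Hnrnpa2b1, an RNA-binding protein of the nucleus, had -0.30 (edgeR adjusted p = 0.0318). By role, 2 of 11 deadenylase genes, 2 of 11 decapping and decay genes, 2 of 10 GW182 and effector genes, 3 of 9 Argonaute loading genes, 1 of 11 tailing and editing genes, 1 of 14 Microprocessor cofactors and 0 of 1 export partner were called.

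Calls of Fmr1, Cnot1, Patl1 and Lsm14b held under all 30 alternative settings and left-out libraries. The call of Cnot3 was lost without TAC library 4, and that of Fkbp4 without TAC library 3 or 4. The calls of Hnrnpa2b1, Adarb1, Ptges3 and P4hb were each lost under 6 to 8 alternatives, among them, in different combinations, leaving out sham library 1, 2, 3 or 4 or TAC library 1, 3 or 4. That of Tnrc6c was lost under 19, among them leaving out any 1 sham library or TAC library 1, 3, 4 or 5. The calls of Adarb1, P4hb and Tnrc6c were also lost in the fit with the ear tag covariate, and that of Tnrc6c with the replicate number as a block. The count of 11 called genes was 7 without sham library 1, 2 or 3, 6 without sham library 4 or TAC library 1, and 5 without TAC library 3 or 4. It rose to 16 without TAC library 2.

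**Figure D5:**
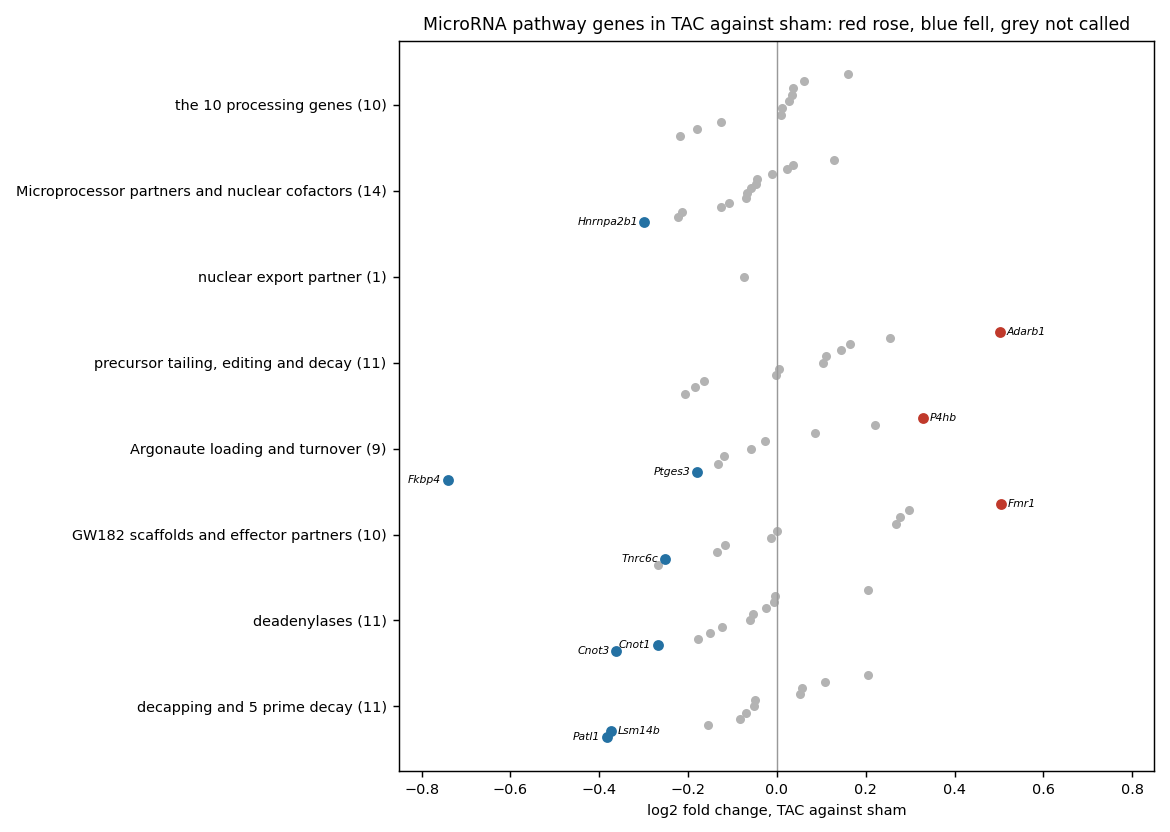
Log2 fold change in TAC against sham (horizontal axis) of the 10 processing genes and of the 67 other pathway genes by role, with the number of genes in brackets. Red genes rose and blue genes fell at an edgeR adjusted p under 0.05, and grey genes were not called. The 10 processing genes are all grey, and Fkbp4 has the lowest value at -0.74.

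In the comparisons among the 3 overloaded groups 0 of the 67 were called by edgeR, and DESeq2 called 1, in PDE9A inhibitor against TAC. Without PDE9A inhibitor library 2, edgeR called 2 there. In PDE5A inhibitor against sham 4 rose and 3 fell, that is 10.4% called against 14.6% of all tested genes, of which 6.81% rose and 7.8% fell. In PDE9A inhibitor against sham 2 rose and 1 fell, that is 4.48% against 3.82% of all tested genes, of which 2.17% rose and 1.65% fell. These counts moved with single libraries, from 2 without PDE5A inhibitor library 4 in the first, and from 0 without sham library 2, 3 or 4 or PDE9A inhibitor library 3 or 4 to 8 without PDE9A inhibitor library 2 in the second. Fmr1 stood at 21.7 ± 2.52 CPM under the PDE5A inhibitor and 21.1 ± 3.32 CPM under the PDE9A inhibitor (SD), beside 22.2 CPM in TAC.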

How the data were processed

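Total RNA (TruSeq Stranded, 500 ng input) from left ventricle of 21 mice was sequenced, per the labels' protocols. The expected counts per gene symbol were deposited by the authors, unscaled, in 1 table, and 19.04% of the values had decimals. Per the submitters' processing notes, the build was mm10 and the tools included RSEM 1.3.0, HISAT2 2.0.5, DESeq2 1.18.1 and CASAVA 1.8.4. No source used here gives the annotation or the strand setting of the counting. Another 27 rows, with dates for symbols, were not named.

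Counts were rounded, filtered with filterByExpr by group and scaled by TMM. A quasi-likelihood model with 1 mean per group was fitted to all 21 libraries and 14135 genes with edgeR 4.0.16 in R 4.3.3, with Benjamini-Hochberg adjustment over these genes within each comparison and calls at an adjusted p under 0.05. DESeq2 1.42.0 was run beside it. Log2 CPM used a prior count of 2. P-values set the difference between groups against the spread between mice. Comparisons with a common group share its libraries. Scripts were tested on simulated data. Totals of 22.7 to 40.99 M counts bound the precision, which the intervals give. Positions and exon lengths come from GENCODE M21 (GRCm38), and sequences from RefSeq (GRCm38.p6). The 10 genes, the lists and the tests were chosen with earlier results of these data known. All 10 genes were named, with up to 3 called genes per role of the pathway list in TAC against sham (lowest adjusted p), any called between overloaded groups, and the 3 closest in pattern to Drosha, Dicer1 and Ago2.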

Additional observations from a re-analysis of the deposited data

Results flagged for a closer look

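Tarbp2 in TAC library 5 stood apart from the other 4 TAC libraries, at 27.3 CPM against 24.1 CPM in the nearest and 22.95 CPM in the farthest. By Dixon's criterion at 95%, this was the 1 distant library found in 40 sets of 1 gene in 1 group, where chance gives about 1 in 20.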

How the results depend on the processing

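Each of the 60 fold changes of the 10 genes (10 genes in 6 comparisons) was recomputed under 30 alternatives, 21 of which left out 1 library each. Of the 1800 values, 3 were called, the 3 given in the report. The sign changed in 104 values of 24 fold changes, of which the largest had a size of 0.068 with all libraries. The cause was not tested for any of these changes, beyond the fewer samples of some fits.

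Signs changed as follows. In PDE9A inhibitor against sham, Dgcr8 was at 0.0015 with size factors, 0.018 with upper-quartile scaling, 0.0037 with DESeq2, 0.0093 with a stricter filter and 0.0064 with the 2 groups alone. Drosha there was at 0.012 with upper-quartile scaling, 0.0038 with the stricter filter, 0.0014 with the 2 groups alone, 0.082 with the ear tag term and 0.023 without PDE9A inhibitor libraries 1 and 4. Ago4 there was at 0.0066, 0.080 and 0.045 with upper-quartile scaling, the ear tag term and without those 2 libraries, Ago3 at -0.014 without them, and Dicer1 at -0.022 with the ear tag term. In PDE5A inhibitor against sham, Ago3 was at 0.015 with upper-quartile scaling, 0.0017 with the stricter filter and 0.022 with the ear tag term, which put Dicer1 at -0.031 and Ago1 at -0.013. The ear tag term put Dgcr8 at -0.010 and Dicer1 at -0.00065 in TAC against sham, Drosha at 0.031 and Dicer1 at -0.030 in PDE5A inhibitor against TAC, and Dicer1 at -0.022 in PDE9A inhibitor against TAC. In PDE9A inhibitor against PDE5A inhibitor, Tarbp2 was at 0.012 and Ago3 at -0.0063 with the ear tag term, Tarbp2 at 0.039 and Ago3 at -0.011 without the 2 libraries, and Dicer1 at -0.0032 with upper-quartile scaling.

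With 1 library left out, fold changes whose sign changed ranged as follows. In TAC against sham, Dgcr8 ran from -0.011 to 0.041, Xpo5 from -0.0015 to 0.055, Dicer1 from -0.0086 to 0.075 and Tarbp2 from -0.035 to 0.046. In PDE5A inhibitor against TAC, Drosha ran from -0.068 to 0.090, Xpo5 from -0.039 to 0.024, Dicer1 from -0.0072 to 0.077 and Ago2 from -0.017 to 0.092. For PDE9A inhibitor against TAC, Dgcr8 ran from -0.046 to 0.029, Dicer1 from -0.0020 to 0.082 and Ago3 from -0.058 to 0.028. In PDE9A inhibitor against PDE5A inhibitor, Dicer1 ran from -0.023 to 0.040, Tarbp2 from -0.030 to 0.040 and Ago3 from -0.0057 to 0.078. In PDE5A inhibitor against sham, Xpo5 ran from -0.0021 to 0.062, Prkra from -0.074 to 0.028, Ago1 from -0.040 to 0.069 and Ago3 from -0.044 to 0.044. For PDE9A inhibitor against sham, Drosha ran from -0.063 to 0.053, Dgcr8 from -0.027 to 0.039 and Ago4 from -0.057 to 0.044.

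Replicate numbers follow the order of the ear tags within each group, so same-numbered libraries partly share a tag series. The mean r of their deviations was 0.053 over 30 pairs, 8 of them over 0.1 (highest 0.56). For other pairs it was -0.012 over 135 pairs, 40 of them over 0.1 (highest 0.49). With the replicate block 0 of the 10 genes were called in any comparison, Ago3 was at 0.0096 in PDE9A inhibitor against TAC and Dicer1 at -0.0058 in PDE9A inhibitor against PDE5A inhibitor. The replicate block gave 1, 0 and 0 calls over all genes in PDE5A inhibitor against TAC, PDE9A inhibitor against TAC and PDE9A inhibitor against PDE5A inhibitor, and 2241 in PDE9A inhibitor against sham, with 8 of the 67 other pathway genes.

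Counts of called genes moved more. Over all genes, PDE5A inhibitor against TAC gave 8 with DESeq2, 1 with the ear tag term and 0 with the 2 groups alone. PDE9A inhibitor against TAC gave 29 with DESeq2 and 0 with no filter, the stricter filter, the ear tag term, the 2 groups alone or without PDE9A inhibitor libraries 1 and 4. PDE9A inhibitor against PDE5A inhibitor gave 35 with DESeq2, 0 with the 2 groups alone and 2 without those libraries. PDE5A inhibitor against sham gave 276 with the ear tag term and 3503 with the 2 groups alone. PDE9A inhibitor against sham gave 1550 with DESeq2, 329 with no filter, 6 with the ear tag term, 17 with the 2 groups alone and 18 without those libraries. Of the 67 other pathway genes, 1 and 11 were called in PDE5A inhibitor against sham with the ear tag term and with the 2 groups alone. They gave 7 with DESeq2 in PDE9A inhibitor against sham, and 0 with the ear tag term, the 2 groups alone or without those libraries, and DESeq2 gave 1 in PDE9A inhibitor against TAC.

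With 1 library left out, all genes called ran from 1781 to 4440 in TAC against sham, 0 to 2 in PDE5A inhibitor against TAC, 0 to 46 in PDE9A inhibitor against TAC, 1 to 8 in PDE9A inhibitor against PDE5A inhibitor, 580 to 2531 in PDE5A inhibitor against sham and 21 to 1814 in PDE9A inhibitor against sham. The pathway genes called ran from 5 to 16 in TAC against sham, 0 to 2 in PDE9A inhibitor against TAC, 2 to 9 in PDE5A inhibitor against sham and 0 to 8 in PDE9A inhibitor against sham. The 10 genes gave 0 to 1 in TAC against sham and in PDE9A inhibitor against sham. The share of Ago2 in sham was 36.9% with the longest transcript, and with no division by length it was 48.0%, 45.1%, 45.5% and 48.2% in sham, TAC, PDE5A inhibitor and PDE9A inhibitor.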
